A study of Homo sapiens with 6 samples.

Results

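miR-28, miR-151 and miR-708, a family of human miRNAs that arose from a LINE-2 repeat, were followed in BCSCs with and without rosmarinic acid (RA), a plant phenolic acid. BCSCs are stem-like breast cancer cells obtained from MDA-MB-231, an established triple-negative line. Members of the family were taken by name, as every mature miRNA of the miR-28, miR-151a, miR-151b and miR-708 hairpins, and 7 of the 449 miRNAs listed by the authors qualified: hsa-miR-28-5p, hsa-miR-28-3p, hsa-miR-151a-5p, hsa-miR-151a-3p, hsa-miR-151b, hsa-miR-708-5p and hsa-miR-708-3p. Small RNA was sequenced from 3 control libraries (0 μg/mL RA, 48 h) and 3 libraries of cells given 200 μg/mL RA for 48 h. All cells carried the genotype label WT, were grown as spheres in serum-free medium with basic fibroblast growth factor and EGF, and were moved to serum medium for the treatment, with RA dissolved in DMSO. BCSCs of this study come from 1 established line, and the labels speak of 3 wells per group without saying whether the libraries were separate cultures, so that p-values measure only the spread between these libraries.

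These miRNAs are a textbook case of a small RNA family that arose from a transposable element. The hairpins are thought to form where repeat copies lie in opposite orientation, so that the transcript folds back on itself. A hairpin is cut by Drosha and then Dicer into a duplex of a 5p and a 3p arm, and usually a single arm is retained by Argonaute. In this family both arms are often abundant, and bases 2 to 8 of each mature arm, the seed, guide it to its target mRNAs. In human cells the miR-28 arms have been described to act differently in colorectal cancer, miR-151a-5p to promote migration of liver cancer cells, and miR-708-5p to restrain metastasis in triple-negative breast cancer.

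RefSeq (GRCh38.p14) gave mature sequences for 3 of the 7 members, which are shown for the letters that the arms of different hairpins share. The seed stands in capitals and each sequence runs 5′ to 3′.
hsa-miR-28-3p: cACUAGAUugugagcuccugga
hsa-miR-708-3p: cAACUAGAcugugagcuucuag
hsa-miR-708-5p: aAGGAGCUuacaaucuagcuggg
hsa-miR-28-3p lies on chromosome 3 (188688834 to 188688855, plus strand). hsa-miR-708-3p (79402032 to 79402053) and hsa-miR-708-5p (79402077 to 79402099) lie on the minus strand of chromosome 11. Both 3p arms hold the run UGUGAGCU, 8 bases from position 9 of miR-28-3p and from position 10 of miR-708-3p, and their seeds share ACUAGA, 6 bases that begin at position 2 of miR-28-3p and at position 3 of miR-708-3p. The 9 bases CUAGAUUGU of miR-28-3p, from its position 3, are the reverse complement of ACAAUCUAG in miR-708-5p, from position 10. Among the 404 of 449 measured miRNAs with a RefSeq sequence, each of these 3 seeds belonged to 1 miRNA only. The other members, miR-28-5p among them, had no sequence there and were not compared. The count thus cannot show whether members of the family share a whole seed.

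In every library hsa-miR-151a-3p was the most abundant member. It stood at 1348, 1189 and 1154 CPM in the controls and at 990.4, 1573 and 1591 CPM after RA. CPM here is the normalized value under that name in the deposited table, read counts divided by a scaled library size. Next by mean level came hsa-miR-708-5p, at 645, 817 and 662 CPM in control libraries and 417, 505 and 666 CPM after RA. hsa-miR-708-3p was lower, between 273 and 290 CPM in the controls and between 240 and 356 CPM after RA. The arms of miR-28 were close to each other, hsa-miR-28-5p at 194 to 232 CPM and hsa-miR-28-3p at 178 to 205 CPM in the controls. hsa-miR-151a-5p lay at 140 to 187 CPM and hsa-miR-151b at 24.7 to 28.9 CPM in the controls. By mean level over the 6 libraries the members ranked from 64 (miR-151a-3p) to 178 (miR-151b) among the 449 miRNAs. All mature arms are of about the same length, so CPM is already a level per molecule length, but ligation of adapters depends on sequence and levels of different miRNAs are comparable only roughly.

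**Figure D1:**
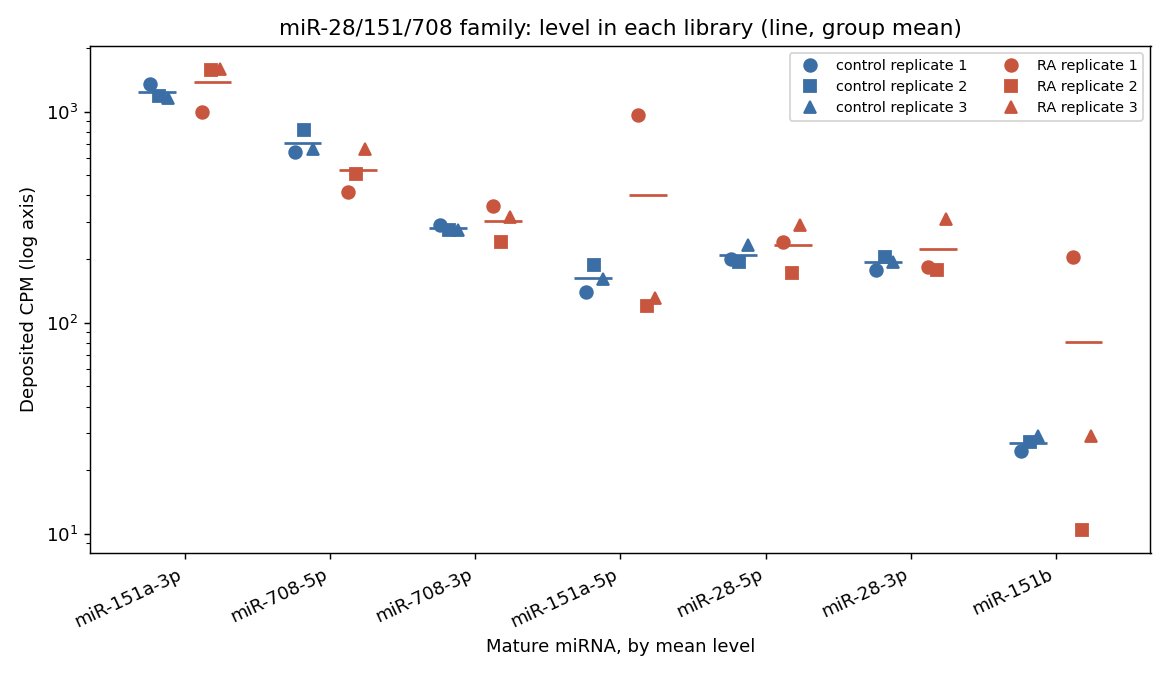
Deposited CPM of the 7 members (log axis) in the 3 control libraries (blue) and the 3 RA libraries (red), with a line at each group mean. RA replicate 1 (red circle) lies far above all other libraries for miR-151a-5p, at 959 CPM, and for miR-151b, at 204 CPM, and below all others for miR-151a-3p and miR-708-5p.

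Neighbours in this order were compared within libraries by an exact sign-flip permutation test over the 6 libraries (two-sided, Benjamini-Hochberg over 6 pairs). The order came from the mean levels of the same 6 libraries, so that the values tested also chose the pairs. These p-values are therefore no independent support for the order. miR-151a-3p exceeded miR-708-5p in 6 of 6 libraries, by 2.13-fold on average, and miR-708-5p exceeded miR-708-3p in 6 of 6, by 2.08-fold. Each had an exact p of 0.031, the smallest that 6 libraries allow, and an adjusted p of 0.094, which misses 0.05. The neighbours miR-708-3p and miR-151a-5p (adjusted exact p = 0.38), miR-151a-5p and miR-28-5p (0.78), miR-28-5p and miR-28-3p (0.38) and miR-28-3p and miR-151b (0.125) missed it too. miR-151a-5p was above miR-28-5p in RA replicate 1 alone, although its mean places it higher. In that library miR-151a-5p was the member with the highest level but 1, whereas in the other 5 libraries it was sixth of 7.

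The hairpins lie within introns of protein-coding genes in GENCODE 29 (GRCh38). MIR28 lies on chromosome 3 from 188688781 to 188688866, on the strand of LPP, a gene of a focal adhesion protein. MIR151A lies on chromosome 8 from 140732564 to 140732653, on the strand of PTK2, which encodes focal adhesion kinase. MIR708 lies on chromosome 11 from 79402022 to 79402109, on the strand of TENM4, a teneurin gene. MIR151B lies on chromosome 14 from 100109419 to 100109514, within an intron of EVL but on the opposite strand. The submitters' processing notes name hg19, whereas these positions are those of GRCh38 and were not used for any value. Mature miR-151b nearly coincides with miR-151a-5p in sequence, and how reads that match both were assigned is not given in the sources used here. Their values may therefore not be independent, which was not tested.

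Whether RA changed these miRNAs was asked with limma on log2(CPM + 1), fitted over all 449 miRNAs with Benjamini-Hochberg adjustment. None of the 7 members passed an adjusted p under 0.05, where 34 of all 449 miRNAs did (7.57%, 13 higher and 21 lower). None of the members had an unadjusted p under 0.05 in limma. With library totals as the only scaling the calls were 17 higher and 11 lower. edgeR's quasi-likelihood test on recovered reads called 14.7% of all miRNAs (38 higher and 28 lower) and 0 of the 7 members, with 2 members at an unadjusted p under 0.05, and DESeq2, with 45 higher and 21 lower, called 0 with 1 member at an unadjusted p under 0.05. No member had control and RA libraries that did not overlap, against 25.8% of all miRNAs. Every member averaged 10 CPM or more. Of the 260 miRNAs at that level, the groups did not overlap for 96, and limma called 9 higher and 21 lower. The median log2 fold change of the 7 was 0.14, beside 0.00 over all miRNAs and -0.17 over those that averaged 10 CPM or more. Depth limited these comparisons: controls held 2190324 to 4111404 miRNA reads and RA libraries 1158116, 176590 and 298412, so that 1 read stood for 5.21 CPM in RA replicate 2. Depth thus differed with the treatment, and the effects of depth and RA cannot be told apart.

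After RA, hsa-miR-151b and hsa-miR-151a-5p had the most uneven values of the family, with coefficients of variation of 132% and 119% against 19.5% to 33.7% for the other 5 members. For hsa-miR-151a-5p, control libraries held 140, 187 and 162 CPM. RA libraries held 959, 120 and 131 CPM, from 971, 23 and 45 reads. RA replicate 1 lay 5.12-fold above the highest of the other 5 libraries, while RA replicates 2 and 3 lay below every control. The log2 fold change was 0.61 (standard error 0.62, 95% interval -0.75 to 1.97, adjusted p = 0.64 from limma). Without RA replicate 1 it was -0.37, with an interval of -0.85 to 0.12 and an adjusted p of 0.32 from limma. edgeR's quasi-likelihood test gave 1.36 with all libraries (adjusted p = 0.12) and -0.33 without RA replicate 1. The sign of the change thus rested on RA replicate 1.

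hsa-miR-151b was likewise highest in RA replicate 1. It stood at 24.7, 27.2 and 28.9 CPM in control libraries and 204, 10.4 and 29.1 CPM after RA, from 207, 2 and 10 reads. RA replicate 1 was 7.03-fold above the highest of the other libraries, and RA replicate 2 rested on 2 reads only. The log2 fold change was 0.57 (standard error 0.81, 95% interval -1.20 to 2.34, adjusted p = 0.72 from limma) and -0.59 without RA replicate 1 (adjusted p = 0.43 from limma). In edgeR's quasi-likelihood test it was 1.76 with all libraries (adjusted p = 0.060), the closest to a call of any member, and -0.31 without RA replicate 1. The ratio of miR-151a-5p to miR-151b was 4.69 in RA replicate 1, near the 5.59 to 6.88 of the controls and the 4.50 of RA replicate 3. In RA replicate 2 it was 11.5, from 23 and 2 reads.

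Among the 258 miRNAs that averaged 10 CPM or more in the other 5 libraries, 3 (1.16%) were at least 3-fold higher in RA replicate 1 than in every other library. These were miR-151a-5p, miR-151b and miR-192-5p, a miRNA of liver and gut, which stood at 3274 CPM there and at most at 861 CPM elsewhere. miRNAs under that mean were not counted, so that others high in RA replicate 1 are missing. Among them were miR-122-5p, at 9493 CPM there and at most 32.1 CPM elsewhere, and miR-203a-3p, at 64.2 CPM against at most 1.61 CPM. The same criterion, which was set after the values were seen, gave 0 miRNAs in each of the other 5 libraries. There too it left out miRNAs that were low elsewhere, such as miR-150-5p, at 212 CPM in RA replicate 3 and at most 1.05 CPM in the others. The zeros therefore do not show that RA replicate 1 alone held such miRNAs. By the SD of log2(CPM + 1) among RA libraries, miR-151b ranked 10 and miR-151a-5p ranked 15 of the 260 miRNAs that averaged 10 CPM or more over all 6 libraries, while the other 5 members ranked 116 to 188. Among controls the SD of all 7 lay between 0.05 and 0.21, where the median miRNA had 0.19.

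hsa-miR-151a-3p, from the same hairpin, did not share that high value. At 990.4 CPM (1003 reads) RA replicate 1 was its lowest library, and RA replicates 2 and 3, at 1573 and 1591 CPM, were its highest. The log2 fold change was 0.14 (standard error 0.22, 95% interval -0.34 to 0.62, adjusted p = 0.74 from limma). Without RA replicate 1 it was 0.37 (95% interval 0.04 to 0.70, adjusted p = 0.14 from limma), and this was the only member with an unadjusted p under 0.05 in that fit. It was 0.03 without RA replicate 2 and 0.02 without RA replicate 3, so that the estimate moved with each RA library.

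**Figure D2:**
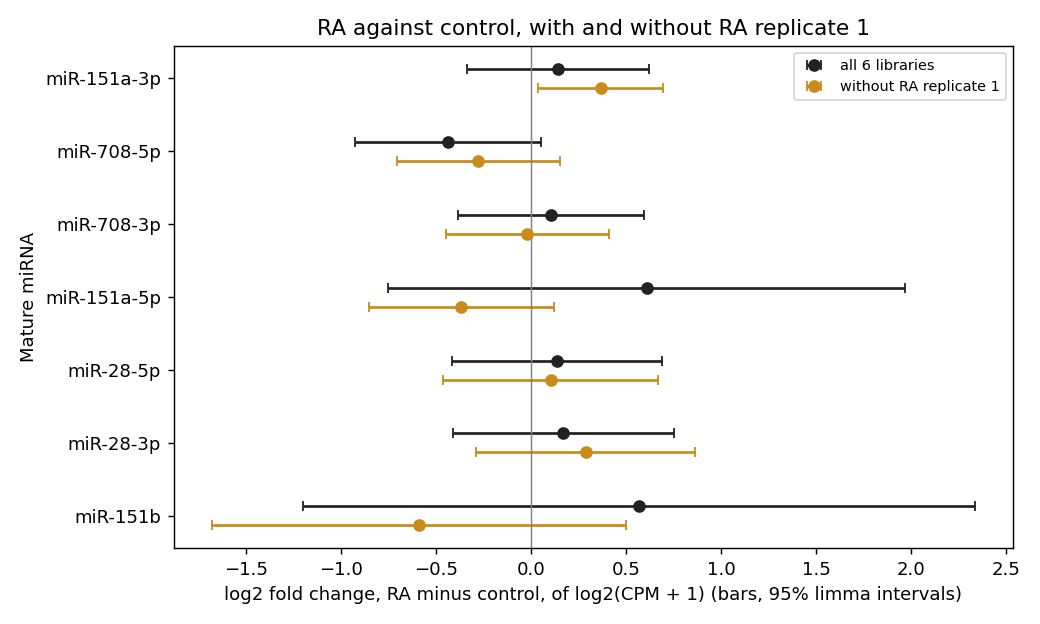
log2 fold change of each member, RA minus control, with 95% intervals from limma, over all 6 libraries (black) and without RA replicate 1 (ochre). With all libraries every interval includes 0, and for miR-151a-5p and miR-151b the estimate moves from 0.61 to -0.37 and from 0.57 to -0.59.

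Some markers of other cell types were high in RA replicate 1, and some of these in RA replicate 3 too. The liver markers miR-122-5p and miR-122-3p, both measured, summed to 9503 CPM there and to 1.93 to 32.1 CPM in the controls, 5.21 CPM in RA replicate 2 and 0 in RA replicate 3, where 0 reads allow up to 8.72 CPM. The endothelial pair miR-126-3p and miR-126-5p summed to 412, 0 and 233 CPM in RA replicates 1, 2 and 3 against 3.16 to 8.99 CPM in the controls. The 7 blood cell markers, all measured, summed to 1935 to 2104 CPM in the controls and 1683 to 2682 CPM after RA, the highest in RA replicate 1. They did not move together. The red cell miRNA miR-451a stood at 824, 26.0 and 355 CPM in RA replicates 1, 2 and 3 against 5.26 to 33.8 CPM in the controls, while miR-142-3p, at 315 CPM, was at its lowest in RA replicate 1. miR-150-5p was at 0 in RA replicates 1 and 2, and miR-144-3p was at 0 in control replicates 2 and 3 and RA replicate 2. The part of these RNAs in the values of miR-151a-5p and miR-151b was not tested. In bulk libraries a change in the number of cells of a type and in RNA per cell cannot be told apart. MDA-MB-231 markers were present in every library, from miR-146a-5p at 504 CPM or more to miR-21-5p at 184992 CPM or more. The 4 of 6 epithelial markers with a value summed to 195 to 277 CPM in the controls and 183 to 218 CPM after RA. Of these, miR-200c-3p was at 2.96 to 5.82 CPM, miR-200b-3p was at 140 CPM or more throughout, and miR-141-3p and miR-205-5p had no value.

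hsa-miR-708-5p was the only member with a negative log2 fold change in the fit of all libraries. Its control values of 645, 817 and 662 CPM compared with RA values of 417, 505 and 666 CPM, from 422, 97 and 229 reads. RA replicates 1 and 2 lay below every control, and RA replicate 3 lay among them. Group means were 707.7 ± 94.7 CPM and 529.3 ± 126 CPM (SD, n = 3 each). RA minus control was -0.44 on the log2 scale (standard error 0.22, 95% interval -0.93 to 0.05, adjusted p = 0.29 from limma). Over 17 fits its log2 fold change stayed between -0.62 and -0.22, and its adjusted p was never under 0.16. hsa-miR-708-3p stood at 290, 273 and 276 CPM in control libraries and 356, 240 and 317 CPM after RA, with RA minus control at 0.10 on the log2 scale (standard error 0.22, 95% interval -0.39 to 0.59, adjusted p = 0.80 from limma). Its RA libraries lay on both sides of the controls.

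hsa-miR-28-5p stood at 200, 194 and 232 CPM in control libraries and 240, 172 and 291 CPM after RA, a log2 fold change of 0.14 (standard error 0.25, 95% interval -0.42 to 0.69, adjusted p = 0.77 from limma). hsa-miR-28-3p stood at 178, 205 and 195 CPM in control libraries and 184, 177 and 311 CPM after RA, with 186, 34 and 107 reads. Its log2 fold change was 0.17 (standard error 0.27, 95% interval -0.41 to 0.75, adjusted p = 0.74 from limma). RA replicate 3 was the highest library for both miR-28 arms, and without it both estimates changed sign, to -0.035 for miR-28-5p and -0.092 for miR-28-3p. Of the 7 blood cell markers, miR-451a, miR-150-5p, miR-223-3p and miR-144-3p were above every control in RA replicate 3, at 355, 212, 145 and 5.82 CPM, the last of these 2 reads. The other 3 were below every control there, miR-142-3p at 457, miR-142-5p at 826 and miR-486-5p at 346 CPM. Whether blood cell RNA was present, and its part in the miR-28 values, was not tested.

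Arm use was compared as the share of 5p reads among the reads of both arms, which does not depend on how libraries are scaled. The miR-28 hairpin was balanced. Its 5p arm held 52.9%, 48.7% and 54.4% of reads in the controls and 56.6%, 49.3% and 48.3% after RA. The shallowest of these, RA replicate 2 with 67 reads, had a 95% Wilson interval of 37.7% to 60.9%. Intervals cover counting error only. The difference in log2 arm ratio was -0.03 (95% interval -0.80 to 0.73, adjusted p = 0.96 from limma over 100 hairpins).

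The miR-151a hairpin was dominated by its 3p arm, except in RA replicate 1. The 5p share was 9.40%, 13.6% and 12.3% in the controls, 49.2% in RA replicate 1 (95% Wilson interval 47.0% to 51.4%, 1974 reads), 7.08% in RA replicate 2 (4.76% to 10.4%, 325 reads) and 7.60% in RA replicate 3 (5.73% to 10.0%, 592 reads). RA replicates 2 and 3 thus lay below every control and RA replicate 1 above. The reads of both arms together came to 1316 to 1488 CPM in the controls and to 1949, 1693 and 1722 CPM after RA, values that were not tested across hairpins. For the arm ratio the difference was 0.47 on the log2 scale (95% interval -1.50 to 2.43, adjusted p = 0.85 from limma) and -0.73 without RA replicate 1 (95% interval -1.35 to -0.11, adjusted p = 0.18 from limma). The shift of RA replicate 1 from the control mean, 2.87 on the log2 scale, was the third highest of 100 hairpins, after miR-122 and miR-194, each of which had an arm with a mean under 10 CPM.

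The miR-708 hairpin favoured its 5p arm in every library. The 5p share was 69.0%, 74.9% and 70.6% in control libraries and 53.9%, 67.8% and 67.8% after RA, so that the groups did not overlap, although 69.0% (66.8% to 71.1%) and 67.8% (62.6% to 72.5% in RA replicate 3) lie within each other's Wilson intervals. Groups were likewise apart, with the RA libraries lower, for 15 of 100 hairpins with both arms measured (15%). The log2 arm ratio went from 1.33 ± 0.22 to 0.79 ± 0.49 (SD, n = 3 each), a difference of -0.54 with a two-sided exact permutation p of 0.10, the smallest that 3 against 3 libraries allow (0.30 adjusted over 3 hairpins), and an adjusted p of 0.47 from limma over 100 hairpins. Without RA replicate 1, whose interval was 50.4% to 57.4%, the difference was -0.26 (adjusted p = 0.46 from limma). Of the 100 hairpins, 4 (4%) passed an adjusted p under 0.05 and none of the 3 family hairpins was among them, none having an unadjusted p under 0.05. The called hairpins with at least 10 CPM in each arm were miR-30e, miR-30a and miR-27a, with differences of -1.91, -1.69 and -1.44 on the log2 scale.

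**Figure D3:**
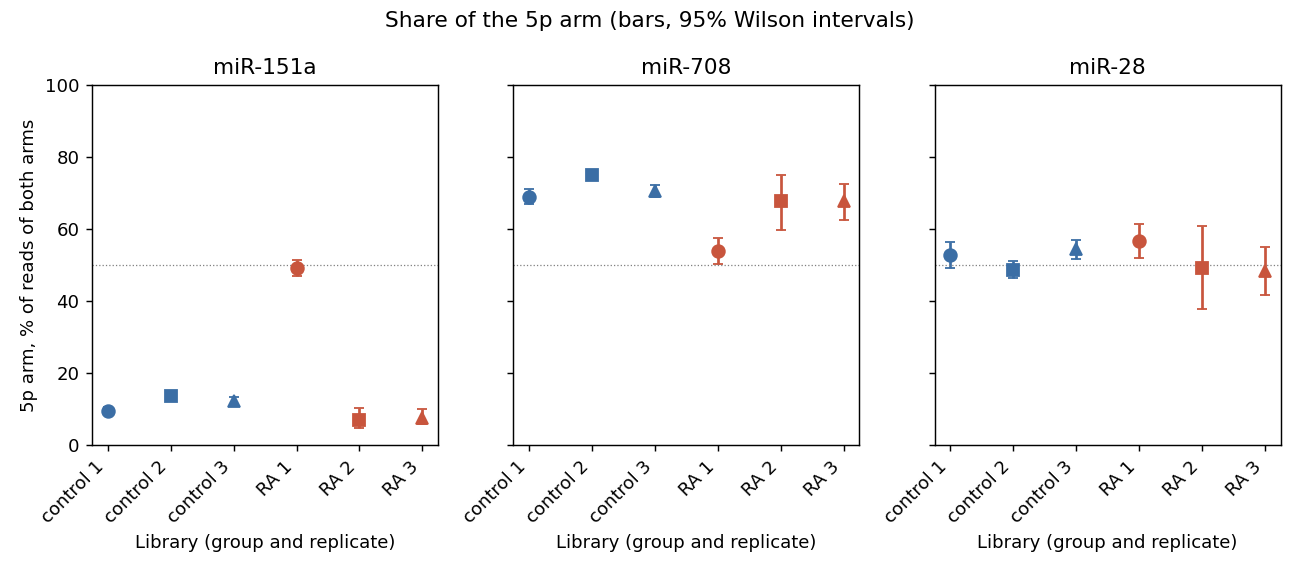
Share of the 5p arm among reads of both arms for the miR-151a, miR-708 and miR-28 hairpins in each library, with 95% Wilson intervals (counting error only). miR-151a lies between 7.08% and 13.6% except for 49.2% in RA replicate 1, all RA libraries of miR-708 lie below the controls, and miR-28 stays between 48.3% and 56.6%.

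**Figure D4:**
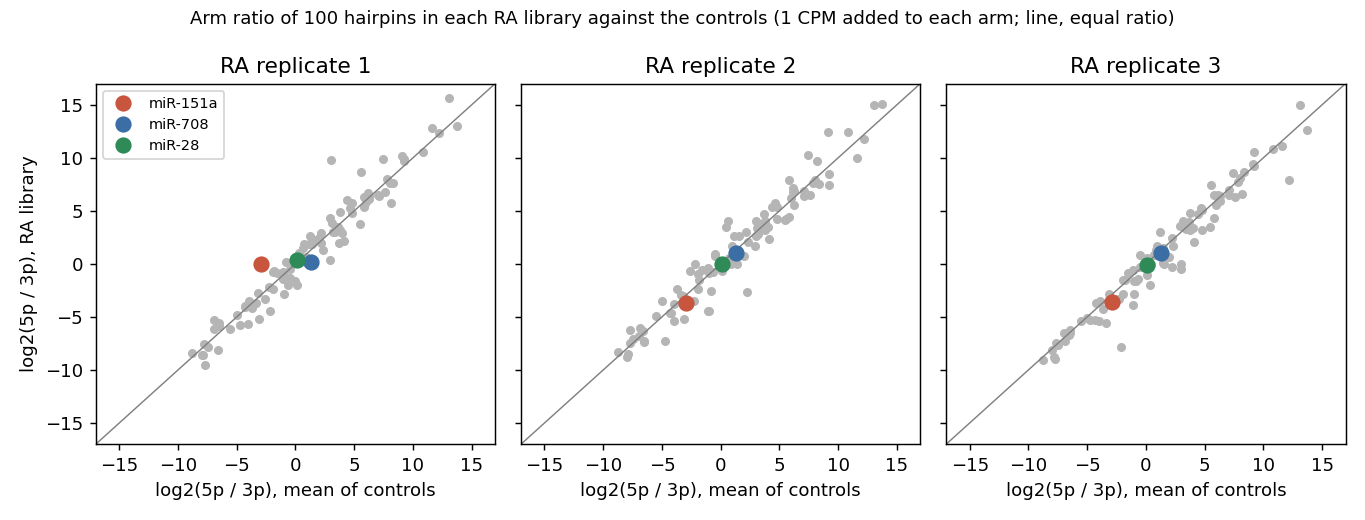
log2 ratio of the 5p to the 3p arm in each RA library (vertical axis) against the mean of the controls (horizontal axis) for 100 hairpins, with equal ratios on the line. In RA replicate 1 miR-151a (red) stands 2.87 above the line, and in RA replicates 2 and 3 it lies below it.

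For each member the 3 miRNAs with the most similar pattern were taken by Pearson r of log2(CPM + 1) over the 6 libraries, among the 253 miRNAs outside the family that averaged 10 CPM or more. These are descriptions of 6 libraries that share depth and scaling, and some of the 253, such as miR-203a-3p and miR-150-5p, reached that mean through a single library. miR-126-3p reached it only through RA replicates 1 and 3, and miR-1469 only through RA replicates 2 and 3. miR-151a-5p was most like miR-203a-3p (r = 0.97), miR-192-5p (0.95) and miR-320b (0.93), which fell to 0.38, 0.44 and 0.54 without RA replicate 1. miR-151b was most like miR-320b (0.96), miR-615-3p (0.96) and miR-192-5p (0.94), which fell to 0.79, 0.66 and 0.59 without RA replicate 1. miR-28-3p was most like miR-150-5p (0.97), miR-15b-5p (0.95) and miR-125b-5p (0.93), which fell to 0.48, 0.57 and 0.89 without RA replicate 3. miR-28-5p was most like miR-99b-5p (0.91), the endothelial marker miR-126-3p (0.87) and miR-181b-5p (0.87), at 0.77, 0.83 and 0.66 without RA replicate 3. miR-708-5p was most like miR-23a-3p (0.98), miR-93-5p (0.96) and miR-17-5p (0.92), with values of 0.87 to 0.95 without RA replicate 1. miR-708-3p was most like miR-191-5p (0.94), again miR-126-3p (0.93) and miR-98-5p (0.92), at 0.91, 0.87 and 0.83 without RA replicate 1. Whether endothelial RNA was present, and its part in the values of miR-28-5p and miR-708-3p, was not tested. miR-151a-3p was most like miR-196b-5p (0.87), miR-181c-3p (0.81) and miR-1469 (0.81), at 0.82, 0.62 and 0.93 without RA replicate 1. Within the family, miR-151a-5p and miR-151b had an r of 0.95, the arms of miR-28 an r of 0.77, the arms of miR-708 an r of -0.35 and the arms of miR-151a an r of -0.81.

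Other miRNAs described as derived from repeats gave 26 measured entries, listed from general knowledge. In limma 1 of these was higher, 2 were lower and 23 did not pass, where 7.57% of all miRNAs were called, and their median log2 fold change was -0.0037. The 12 that averaged 10 CPM or more held all these calls, with 3 positive and 9 negative values. Their median was -0.19, beside -0.17 over all miRNAs at that level. The higher miRNA was miR-340-5p, which lies in a DNA transposon, at 2.63, 2.33 and 0.32 CPM in control libraries and 53.3, 135 and 81.4 CPM after RA, with RA minus control at 5.07 on the log2 scale (standard error 0.59, adjusted p = 2.7e-04 from limma). miR-374b-5p, of LINE-2 origin like the family, was at 701 to 801 CPM in the controls and 405 to 459 CPM after RA, and RA minus control was -0.80 on the log2 scale (standard error 0.19, adjusted p = 0.022 from limma). miR-378a-3p was at 6639 to 8651 CPM in the controls and 4330 to 4522 CPM after RA, and RA minus control was -0.75 on the log2 scale (standard error 0.18, adjusted p = 0.024 from limma). miR-361-3p, the next most abundant, had a log2 fold change of -0.22 (adjusted p = 0.67 from limma). The call of miR-340-5p ended without RA replicate 3 (adjusted p = 0.058), that of miR-374b-5p without any 1 of the controls (up to 0.13) and that of miR-378a-3p without any 1 library other than RA replicate 1 (up to 0.16), all in limma. Library totals as the only scaling left miR-340-5p as the 1 call (adjusted p = 0.13 for miR-374b-5p and 0.071 for miR-378a-3p, from limma).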

How the data were processed

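Small RNA of 3 control and 3 RA libraries was measured after 48 h. Per the labels, RNA was pretreated to remove end and base modifications before adapter ligation, and the extraction text describes brain tissue instead of cultured cells. The authors deposited a normalized signal per miRNA, headed CPM, whose columns sum to 867794 to 1152344, so that a scaled library size was the divisor. The submitters' notes name hg19, and how reads were aligned, counted and scaled is not given in the sources used here. Dividing each value by the worth of 1 read in its library gave a whole number for 100% of 2694 values (tolerance 0.01 reads).

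In R 4.3.3, limma 3.58.1 (trend option) was applied to log2(CPM + 1) of the 449 miRNAs, and to log2 arm ratios of 100 hairpins whose arms each had a mean of at least 1 CPM. Both fits were tested on simulated data, drawn with the depths of these libraries and the spread of the controls alone. The wider spread of the RA libraries was thus not covered. For miRNAs that averaged 10 CPM or more, the median SD of log2(CPM + 1) was 0.42 after RA and 0.19 in the controls. Since the deposited values were normalized, edgeR 4.0.16 and DESeq2 1.42.0 on recovered reads were alternatives, beside limma-voom, other scalings, pseudocounts of 0.5 and 5, filters, a replicate block and leaving out each library. Members, lists and tests were chosen with earlier results of these data known. Named were all members, the 3 miRNAs most like each, the called and the 3 most abundant entries of the repeat list, and the 3 called hairpins with the largest change and at least 10 CPM in each arm. Cell type markers were listed from general knowledge. The exact test for miR-708 was added after its values were seen. A count of 0 in RA replicate 2 allowed up to 15.6 CPM (3 reads).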

Additional observations from a re-analysis of the deposited data

How the results depend on the processing

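No member passed in any of 17 fits, and the lowest adjusted p of a member was 0.060, for miR-151b in edgeR's quasi-likelihood test. The log2 fold change of miR-151a-5p ranged from -0.37 to 1.46 over these fits, that of miR-151b from -0.59 to 1.80, that of miR-28-3p from -0.09 to 0.41, that of miR-28-5p from -0.04 to 0.36, that of miR-708-3p from -0.02 to 0.32 and that of miR-151a-3p from 0.02 to 0.41. Leaving out 1 library at a time, they ranged in limma from -0.37 to 1.13 (miR-151a-5p), -0.59 to 1.49 (miR-151b), -0.092 to 0.31 (miR-28-3p), -0.035 to 0.34 (miR-28-5p), -0.020 to 0.27 (miR-708-3p) and 0.024 to 0.37 (miR-151a-3p). In edgeR without RA replicate 1, added after the data were seen, miR-151a-5p was at -0.33 and miR-151b at -0.31. The arm ratio difference ranged from -0.73 to 1.10 for miR-151a and from -0.18 to 0.057 for miR-28 when 1 library was left out. With the reads of miR-151b added to miR-151a-5p, also chosen after the data were seen, it was -0.75 for miR-151a without RA replicate 1. None of the neighbour pairs in the order of levels passed at pseudocounts of 0.5, 1 or 5, and 5 libraries cannot reach 0.05. Calls in the repeat list numbered 3 in the main fit, 1 with scaling to the library total, and 1 to 5 without 1 library (5 without RA replicate 1; 1 without RA replicate 3 or any 1 control).

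Over all miRNAs, limma made 34 calls, edgeR 66, DESeq2 66 and limma-voom 77, and the median log2 fold change moved from 0.00 to 0.13 with library totals, 0.12 with upper quartiles, 0.15 in edgeR, 0.32 in DESeq2 and 0.20 in limma-voom. Leaving out 1 library gave 10 to 49 calls. Deviations of equal replicate numbers correlated at 0.12, -0.19 and 0.13, and those of unequal numbers at -0.25 to 0.14. Such weak values cannot show whether the numbers pair the libraries. A replicate block gave 55 calls and 0 among the members, and not every library correlated best with its own number. Depth limits miR-151b most, with 2 and 10 reads in RA replicates 2 and 3.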

Other observations

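Summed over the 7 members, the family made up 2709 to 2893 CPM in the controls and 3350, 2797 and 3336 CPM after RA. This is 0.245% to 0.302% of the listed CPM of each control library and 0.293%, 0.304% and 0.384% of RA replicates 1, 2 and 3. RA replicates 1 and 3 thus lay above every control in CPM, whereas RA replicates 2 and 3 did so as a share. Neither was tested. miR-151a-5p was sixth of 7 in every library except RA replicate 1, where it came second, and miR-151b was last in every library except RA replicate 1, where it came sixth. The miR-28 arms exchanged places between libraries, with miR-28-5p above miR-28-3p in control replicates 1 and 3 and RA replicate 1.

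miR-142-3p and miR-142-5p, markers of blood cells, stood at 315 to 704 CPM and 823 to 1140 CPM over all 6 libraries, controls included, and miR-486-5p stood at 240 to 398 CPM.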
